A study of Mus musculus with 12 samples.

Results

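The effect of TEL-AML1 after 7 days of IL7 and FLT3L was read from 4 of the 12 Affymetrix arrays of the series: 2 arrays of EML1 cells carrying TEL-AML1 in the lentiviral vector pWPI and 2 of EML1 cells carrying the empty pWPI vector, chosen by their titles. EML1 is a haematopoietic progenitor line: the retroviral vector LRARalpha403SN was put into marrow cells of male BDF1 mice, so every group carries it. The other 8 arrays hold both vectors untreated and at day 5, again 2 arrays a group. They enter the results as part of the shared estimate of spread and as a measure of whether the vector difference changed with treatment. The spread was not equal across groups. Without treatment the 2 arrays of a group lay closer together, with a median log2 gap of 0.0682 for TEL-AML1 and 0.0688 for the empty vector. At day 7 this gap was 0.0978 against 0.13, and at day 5 it was 0.102 against 0.134. Day 7 standard errors and adjusted p from the shared estimate may therefore be too small. Per the culture protocol in the labels, B-cell differentiation used 50000 EML1 cells on OP9 stroma with 10 ng/ml IL7 and 80 ng/ml FLT3L. The titles name only the cytokines, so the stroma under the treated cells is read from that protocol. Whether replicates came from separate cultures or clones is not stated in the labels, so p-values may reflect only technical spread between arrays.

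TEL-AML1 (ETV6-RUNX1) joins the N-terminal part of the repressor ETV6 to most of RUNX1, a DNA-binding factor of blood stem and progenitor cells that works with its partner CBFB. The fusion keeps the DNA-binding domain of RUNX1 and is found in B-cell precursor leukaemia of childhood, where it is known to recruit corepressors and histone deacetylases. IL7 and FLT3L are cytokines of early lymphoid growth. EML cells carry a dominant-negative retinoic acid receptor alpha and depend on stem cell factor in maintenance culture.

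The arrays showed progenitor transcripts in both vectors at day 7. Kit, the receptor for stem cell factor, stood at 2450 and 2624 in the empty-vector arrays (replicates 1 and 2, the order used throughout) and at 2486 and 2744 in the TEL-AML1 arrays. Cd34, a surface protein of progenitors, stood at 2041 and 2321 against 2035 and 1927. Neither passed the test (adjusted p = 0.843 and 0.386). Ptprc, the CD45 phosphatase of blood cells, was higher with TEL-AML1 (0.48 ± 0.085, adjusted p = 0.00492). Differences are on the log2(intensity + 16) scale, TEL-AML1 minus empty vector, with the standard error after ±, and each adjusted p comes from limma (Benjamini-Hochberg, 12337 genes). Defining early B markers were near the floor of the arrays, where the lower quartile of an array's intensity lay near 48: Cd79b ranged from 68.6 to 89.8 over the 4 arrays, Vpreb1 from 64.9 to 74.3 and Pax5 from 53.6 to 64.9. Whether the Etv6 and Runx1 probe sets also detect the fusion transcript is not known here, and neither gene passed. Etv6 stood at 1528 and 1468 against 1589 and 1673 (0.12 ± 0.082, adjusted p = 0.421) and Runx1 at 1909 and 1600 against 1808 and 1874 (0.07 ± 0.11, adjusted p = 0.727).

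Of the 12337 genes tested, 1393 passed the threshold of 0.05 at day 7 (11.3%): 653 were higher with TEL-AML1 (5.29%) and 740 lower (6%). More than 2-fold changes on this scale were found for 86 of the higher (0.697% of genes tested) and 59 of the lower genes (0.478%). The median difference over all genes was -0.03. With 1 day 7 array left out the total was 1110 without empty-vector replicate 1, 1731 without empty-vector replicate 2, 757 without TEL-AML1 replicate 1 and 788 without TEL-AML1 replicate 2, and 519 genes (242 higher, 277 lower) passed in the full set and in all 4 of these fits. These reduced fits leave 1 array in an arm, which is assumed to vary like the other groups. With only the 4 day 7 arrays in the fit 373 genes passed. That fit leaves out the untreated arrays, which lay closer together, but it also estimates spread from fewer arrays. Which of these lowered the count was not tested. Of 106 called genes whose day 7 differences are given in the text, 65 passed there, and those that did not (adjusted p from 0.0505 to 0.214) were Aprt, Bcl2, Car1, Ccna2, Ccr2, Cd81, Cdh17, Dck, Dhx58, Dntt, Dusp4, Epb42, Gata2, Ifitm1, Il6st, Il9r, Irf1, Isg20, Itga6, Mcpt2, Mcpt4, Meis1, Mid1, Mitf, Nfe2, Pdgfrb, Pim2, Psmb8, Psph, Ptger3, Ptprc, Runx3, Slamf1, Slc38a1, Slc7a1, Smad5, Stard4, Tk1, Tk2, Tnfrsf1a and Zeb2. Both TEL-AML1 arrays lay above both empty-vector arrays for 2670 genes (21.6%) and below them for 3502 (28.4%), so groups that do not overlap were common among genes that did not pass. All 653 higher and 740 lower genes had separate groups, so where a called gene is said not to overlap, this describes its arrays and adds no support to the call. The filter on low intensity (a mean over the 12 arrays above 60.1) was reached through 1 vector alone by some called genes: 59 of the 653 higher had an empty-vector mean below it, and 21 of the 740 lower a TEL-AML1 mean below it. For genes with 1 vector near the floor, the size of the difference depends on the floor and on the 16 added before the log. When same-numbered arrays were paired within each condition (the replicate block), 2216 genes passed, 1390 of them shared with the 1393.

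**Figure D1:**
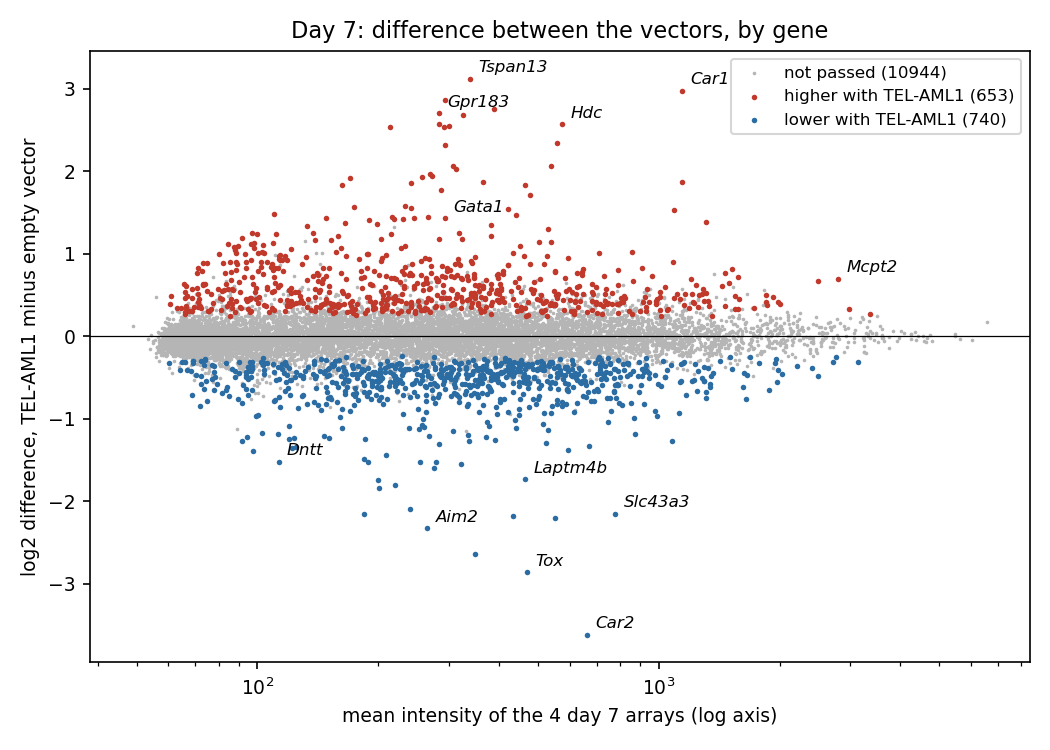
Log2 difference between TEL-AML1 and empty vector at day 7 (vertical axis) against the mean intensity of the 4 day 7 arrays (horizontal axis, log scale), 1 point a gene. The 653 red points are higher with TEL-AML1 and the 740 blue points lower; Tspan13 (3.12) and Car1 (2.98) lie at the top and Car2 (-3.62) and Tox (-2.86) at the bottom.

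Transcripts of the OP9 list (39 tested genes of matrix, contractile and other stromal functions) were also followed on the treated arrays. At day 7 their summed intensity was 6642 and 11890 in the empty-vector arrays against 6045 and 8970 in the TEL-AML1 arrays, compared with 5161 to 5482 over the 4 untreated arrays. Replicate 2 was the higher one in both vectors, and the groups overlapped, while within each same-numbered pair the TEL-AML1 array had the lower sum. Col1a1, a collagen chain, stood at 130.1 and 363 against 91.6 and 225. Over the 4 untreated arrays Col1a1 ranged from 88 to 99.1, so TEL-AML1 replicate 1 lay at the untreated level. Col1a2, another collagen chain, did so too (79.6, against 74.3 to 82.2 untreated), while Sparc lay slightly above it (66, against 52.09 to 56.25). In all, 37 of the 39 stromal genes lay below 0 in the vector comparison (median -0.28), and 2 passed: Pdgfrb, a growth factor receptor, as higher (0.53 ± 0.10, adjusted p = 0.00747; 0.0535 without TEL-AML1 replicate 2) and Islr as lower. Islr, a secreted leucine-rich repeat protein, stood at 505 and 721 against 81.6 and 85.7 (-2.64 ± 0.19, adjusted p = 4.15e-05) and was also called lower in untreated cells (-2.42). It is counted in the sums above, so part of their gap within each pair is a difference also called without treatment. Igfbp4, counted as well, stood at 1741 and 1525 in untreated empty-vector arrays and at 1621 and 1622 in untreated TEL-AML1 arrays. At day 7 it stood at 2014 and 1725 against 2260 and 2331, so the sums do not measure stroma alone. The calls made up 5.13% of the list, against 11.3% of all genes. In the replicate block 7 stromal genes were lower and 2 higher, while over all genes 1163 were lower and 1053 higher in that fit. In bulk RNA, fewer stromal cells and less RNA per stromal cell cannot be told apart. The mean of this list was therefore also used as a covariate: 620 of the 653 higher and 700 of the 740 lower genes passed again in that fit.

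**Figure D2:**
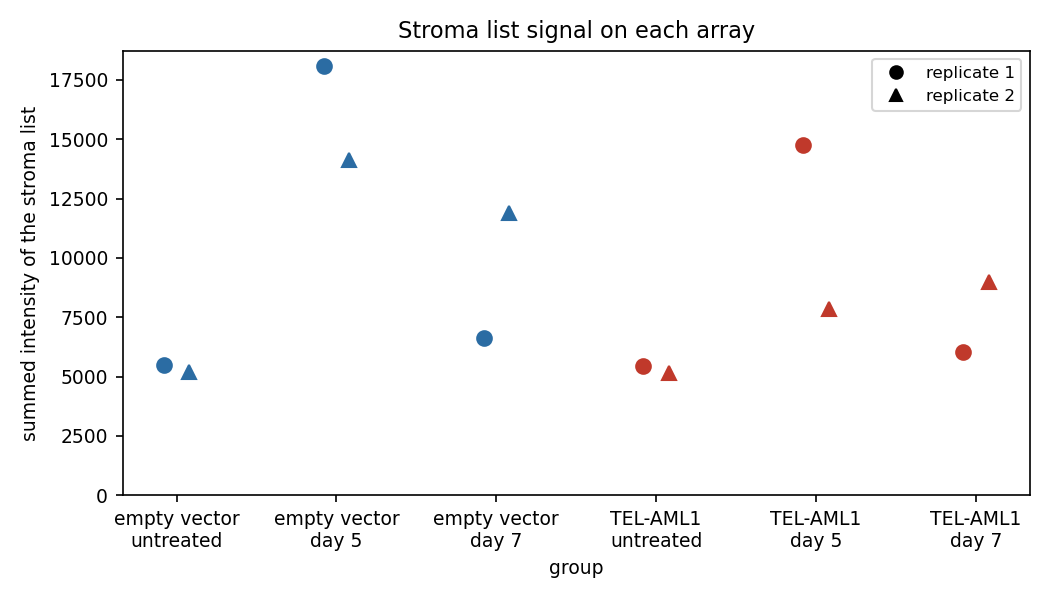
Summed linear intensity of the 39 tested stromal genes on each of the 12 arrays, by group; circles are replicate 1 and triangles replicate 2. At day 7 the empty-vector arrays stand at 6642 and 11890 and the TEL-AML1 arrays at 6045 and 8970.

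Mast cell genes were the list with the largest share of calls. The 27 lists were chosen with earlier results of these data known, so this rank is a description and no test. The list had 28 tested genes of mast cells, basophils and eosinophils. Of these 12 passed as higher with TEL-AML1 and 1 as lower (46.4% called against 11.3% of all genes). The median difference was 0.44 against -0.03 over all genes. The higher genes include Csf2rb and Csf2rb2, near-identical copies that are not independent. All 12 higher genes passed again with the stroma covariate, and 8 passed without each single day 7 array. The number higher was 8 without TEL-AML1 replicate 1 and 11 to 13 without each of the others. In the same list 9 of the 28 genes were called higher in untreated cells and 5 at day 5, where 2.74% and 3.04% of all genes were higher. The lower call was Mitf, a mast cell transcription factor (-0.32 ± 0.086, adjusted p = 0.0376), lost whichever day 7 array was left out (adjusted p up to 0.193).

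Hdc, the enzyme that makes histamine, stood at 200.4 and 113 with the empty vector and at 1167 and 817 with TEL-AML1 (2.57 ± 0.34, adjusted p = 0.000912). Ms4a2, the beta chain of the high-affinity IgE receptor, stood at 91.5 and 61.6 against 599 and 446 (2.55 ± 0.33, adjusted p = 0.000784). Both genes had every TEL-AML1 array above every empty-vector array, with replicate 1 the higher one in each vector. Cma1, a mast cell chymase, rose from 238 and 161 to 988 and 764 (2.06 ± 0.30, adjusted p = 0.00157). Slc6a4, the serotonin transporter, rose from 89 and 82.5 to 605 and 399 (2.32 ± 0.27, adjusted p = 0.000446). Cd200r3, an activating receptor of basophils and mast cells, stood at 55 and 50.9, near the floor, against 164 and 130 (1.23 ± 0.21, adjusted p = 0.00365), and reached the filter through TEL-AML1 alone. The groups of these 3 genes did not overlap either. Mcpt2, another protease gene, was bright in both vectors, at 2439 and 1854 against 3598 and 3317 (0.70 ± 0.13, adjusted p = 0.00584). Mcpt4, a chymase of connective tissue mast cells, stood at 622 and 322 against 2499 and 1130 (1.87 ± 0.50, adjusted p = 0.0384), and this call was lost without empty-vector replicate 2 or TEL-AML1 replicate 1 (adjusted p up to 0.229). Gata2, a transcription factor of progenitors and mast cells, stood at 1242 and 1034 against 1813 and 1659 (0.61 ± 0.12, adjusted p = 0.00803; 0.0625 without TEL-AML1 replicate 1).

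Other defining mast cell genes did not pass. Cpa3, the mast cell carboxypeptidase, was among the brightest genes in both vectors, at 4636 and 3922 against 4465 and 4386 (0.05 ± 0.091, adjusted p = 0.772). Tpsab1, a tryptase, lay near the floor on all 4 arrays (61.5 to 63.3). Tpsb2, a second tryptase, stood at 137 and 74.3 against 518 and 146 (1.32 ± 0.53, adjusted p = 0.155). Its highest value was on TEL-AML1 replicate 1, and it passed with the replicate block (adjusted p = 0.0148).

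The promoters of the mast cell genes called higher were searched for the GATA motifs AGATAA and TGATAA on either strand, in RefSeq windows (GRCm38.p6) from 250 bases before to 50 after a gene's start. Of the 10 genes with a window, 4 held a motif: Cd200r3, Csf2rb2, Mcpt4 and Ms4a2. The share was 12.7% over the 9874 tested genes with a window, 18.6% among genes called higher and 13.5% among genes called lower. The Ms4a2 promoter is printed because it held 3 matches, at 224, 37 and 11 bases before the start; capitals mark AGATAA or its reverse complement on the printed strand (chr19:11623720-11623969, minus strand, 250 bases up to the start).
Ms4a2: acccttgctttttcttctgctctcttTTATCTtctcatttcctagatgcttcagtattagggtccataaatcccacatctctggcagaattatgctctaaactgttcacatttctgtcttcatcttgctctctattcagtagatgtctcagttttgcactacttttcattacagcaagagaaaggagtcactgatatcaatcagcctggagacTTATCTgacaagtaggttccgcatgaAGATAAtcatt

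Cytokine receptor genes were called in both directions. Of 33 tested genes for cytokine receptors and STAT feedback, 8 were higher, 3 lower and 22 did not pass (33.3% called, against 11.3% of all genes), with a median of 0.06, and 5 of the higher and none of the lower passed without each single array. The lower calls were Tnfrsf1a, a TNF receptor (-0.47 ± 0.087, adjusted p = 0.0069), Il9r, the IL9 receptor chain (-0.42 ± 0.092, adjusted p = 0.0155), and Il6st, the gp130 chain shared by IL6-type receptors (-0.34 ± 0.086, adjusted p = 0.0284). Csf2rb, the beta chain shared by the IL3, IL5 and GM-CSF receptors, stood at 1082 and 1115 against 1875 and 2002 (0.81 ± 0.094, adjusted p = 0.000448). Its neighbour Csf2rb2, the IL3-specific beta chain, stood at 1091 and 1069 against 1775 and 1920 (0.77 ± 0.091, adjusted p = 0.000528). Replicates of both genes lay close together and far from the other vector, but as near-identical copies they can share probe signal and are not independent. Ifngr1 and Ifngr2, the chains of the interferon gamma receptor, were higher by 1.15 ± 0.12 and 1.14 ± 0.15. Ifngr1 stood at 357 and 304 against 760 and 738 and Ifngr2 at 258 and 358 against 622 and 769 (adjusted p = 0.00031 and 0.000893), with no overlap. Pim2, a kinase induced by STAT5, stood at 445 and 482 against 727 and 937 (0.81 ± 0.14, adjusted p = 0.00388). Il7r, the IL7 receptor chain, did not pass: it stood at 73.9 and 52.2 against 159 and 52.4, so that 1 TEL-AML1 array lay above the others and 1 did not (0.48 ± 0.32, adjusted p = 0.417). Flt3, the receptor of the other cytokine, was below the filter on low intensity. Cish, 1 of the 8 higher genes, reached that filter through TEL-AML1 alone, so its entry favoured a higher call.

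Erythroid genes moved in both directions. Of 29 tested, 9 were higher with TEL-AML1 and 3 lower (41.4% called, against 11.3% of all genes), with a median of 0.29. Kel, 1 of the 9 higher genes, reached the filter through TEL-AML1 alone, so its entry favoured a higher call. The number higher was 4 without TEL-AML1 replicate 1 and 5 without empty-vector replicate 2, and 7 of the 12 calls passed without each single array; all 12 passed with the stroma covariate. Gata1, the leading transcription factor of red cell, megakaryocyte and mast cell precursors, stood at 160 and 142 against 441 and 428 (1.43 ± 0.19, adjusted p = 0.000884). Nfe2, a factor of globin and platelet genes, stood at 347 and 247 against 566 and 528 (0.87 ± 0.14, adjusted p = 0.00281). Neither gene's arrays overlapped. Mpp1, which helps anchor the red cell membrane, rose from 69.1 and 79.3 to 575 and 442 (2.53 ± 0.15, adjusted p = 1.14e-05).

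The carbonic anhydrases of red cells went opposite ways. Car1 stood at 441 and 124 with the empty vector and at 2308 and 1689 with TEL-AML1 (2.98 ± 0.49, adjusted p = 0.00324). Car2, of the same gene cluster, stood at 1577 and 905 against 101 and 67.5 (-3.62 ± 0.24, adjusted p = 2.01e-05), the lowest difference of any gene named by the rule. Both genes were higher on replicate 1 in each vector, and the vectors did not overlap for either. Epb42, a membrane protein of red cells, stood at 202 and 180 against 114 and 78.9 (-0.90 ± 0.13, adjusted p = 0.00204). Slc14a1, the urea transporter of red cells, stood at 2334 and 2256 against 1552 and 1370 (-0.65 ± 0.082, adjusted p = 0.000737). Klf1, a factor needed for globin expression, stood at 75.7 and 60.7 against 188 and 118 (0.98 ± 0.36, adjusted p = 0.123) and passed with the replicate block (adjusted p = 0.0106). Epor, the erythropoietin receptor, stood at 128 and 117 against 161 and 145 (0.29 ± 0.12, adjusted p = 0.177).

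Megakaryocyte and platelet genes had no member higher and 5 of 20 lower (25% called, against 11.3% of all genes), with a median of -0.15. Of these, 2 passed without each single array and 4 with the stroma covariate. F13a1, the A chain of clotting factor XIII, stood at 785 and 654 with the empty vector and at 164 and 129 with TEL-AML1 (-2.18 ± 0.12, adjusted p = 1.03e-05). Gp9, part of the platelet receptor for von Willebrand factor, stood at 348 and 316 against 135 and 156 (-1.11 ± 0.099, adjusted p = 0.000113). Both were clearly separated between the vectors. Pf4, platelet factor 4, stood at 963 and 1092 against 652 and 689 (-0.60 ± 0.16, adjusted p = 0.0397), a call that was lost whichever day 7 array was left out (adjusted p up to 0.164). The number of lower members was 2 without TEL-AML1 replicate 1 and 3 or 4 without each of the others.

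**Figure D3:**
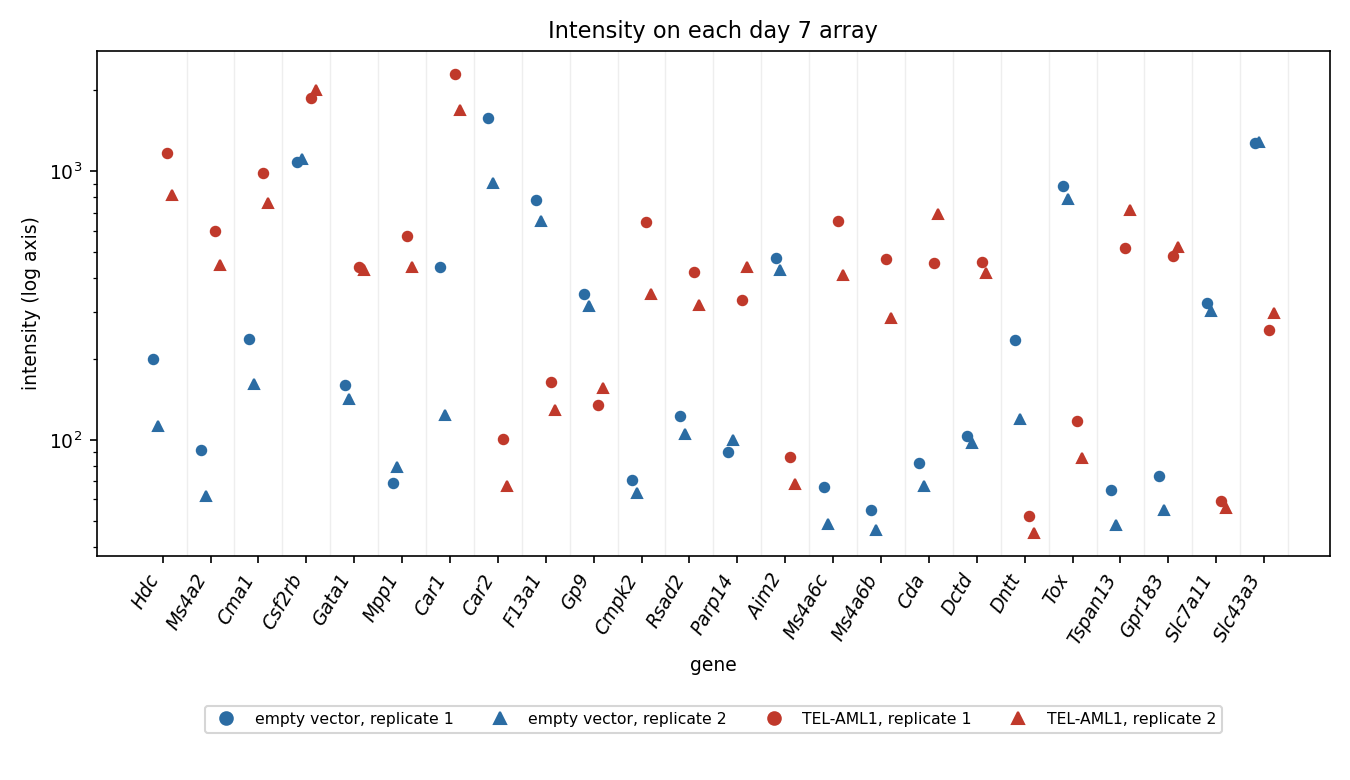
Intensity (log axis) of 24 named genes on each of the 4 day 7 arrays; blue is empty vector, red TEL-AML1, circles replicate 1 and triangles replicate 2. The red points of each gene lie all above or all below the blue ones, as they do for every called gene, for example Hdc (113 to 200.4 in blue, 817 to 1167 in red) and Tox (789 to 882 in blue, 86 to 118 in red).

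Interferon response genes were mostly higher where called. Of 49 tested, 12 were higher and 2 lower (28.6% called, against 11.3% of all genes). Their median was 0.27, against medians of -0.07 in untreated cells and -0.11 at day 5 for the same genes. With 1 array left out, 11 or 12 were higher without an empty-vector array and 5 without either TEL-AML1 array, and 4 higher genes passed in all these fits: Cmpk2, Parp14, Rsad2 and Slfn5. In the replicate block 22 members were higher, while higher calls over all 12337 genes also went up, from 653 to 1053. Rsad2, the antiviral enzyme viperin, stood at 123 and 105 against 421 and 318 (1.56 ± 0.13, adjusted p = 9.66e-05). Cmpk2, a mitochondrial nucleotide kinase encoded next to Rsad2, stood at 70.8 and 63.2 against 650 and 348 (2.57 ± 0.27, adjusted p = 0.000272). Parp14, a mono-ADP-ribosyl transferase, stood at 90.1 and 99.5 against 333 and 441 (1.85 ± 0.12, adjusted p = 1.95e-05). None of the 3 genes overlapped between the vectors. Slfn5, of the Schlafen family, stood at 399.2 and 391.6 against 567 and 585 (0.53 ± 0.069, adjusted p = 0.000881).

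Other well-known members were called with smaller differences or did not pass. Isg20, an antiviral exonuclease, Ifitm1, a membrane protein that restricts viral entry, Irf1, a transcription factor, and Dhx58, an RNA sensor, were higher by 0.36, 0.41, 0.47 and 0.50 (adjusted p = 0.0363, 0.043, 0.0444 and 0.0477), and each of the 4 calls was lost without either TEL-AML1 array (adjusted p up to 0.223). Ifit1, an RNA-binding antiviral protein, stood at 822 and 497 against 841 and 772 (0.33 ± 0.20, adjusted p = 0.369), and Irf7, a regulator of type I interferon genes, at 850 and 768 against 914 and 996 (0.24 ± 0.097, adjusted p = 0.161). In the other direction were Aim2, a sensor of DNA in the cytosol, and Tap2, a chain of the peptide transporter for MHC class I. Aim2 stood at 477 and 428 against 86.5 and 68.4 (-2.33 ± 0.14, adjusted p = 1.14e-05), a difference that was also called in untreated cells (-2.72) and at day 5 (-2.23). Tap2 stood at 453 and 467 against 274 and 316 (-0.62 ± 0.098, adjusted p = 0.00281). Psmb8, an immunoproteasome subunit encoded next to Tap2, was called the other way (0.53 ± 0.12, adjusted p = 0.0196), and that call was lost without empty-vector replicate 1 or either TEL-AML1 array (adjusted p up to 0.136).

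The core of the interferon-stimulated response element (GAAA, any 2 bases, GAAA) was searched on either strand in the same promoter windows. A gene was counted if any of its windows held the motif. It was present for 19 of the 38 tested interferon genes with a window (50%). Among the 10 members called higher that had a window, 2 held it, Rsad2 and Slfn5. Its share was 3.43% among tested genes, 4.3% among genes called higher and 2.64% among genes called lower. TGTGGT, the RUNX core motif, was held by 20.3% of genes called higher, 14.2% of genes called lower and 15.6% of tested genes, each among genes with a window. In the window of Cmpk2 it occurred at 95 and 18 bases before the start. Rsad2 and Slfn5 are shown as the called members with the interferon motif and Cmpk2 as the neighbour of Rsad2; capitals mark the match on either strand, the interferon core for Rsad2 (chr12:26456453-26456702, minus strand) and Slfn5 (chr11:82951852-82952101, plus strand) and TGTGGT for Cmpk2 (chr12:26468965-26469214, plus strand), each 250 bases up to the start.
Rsad2: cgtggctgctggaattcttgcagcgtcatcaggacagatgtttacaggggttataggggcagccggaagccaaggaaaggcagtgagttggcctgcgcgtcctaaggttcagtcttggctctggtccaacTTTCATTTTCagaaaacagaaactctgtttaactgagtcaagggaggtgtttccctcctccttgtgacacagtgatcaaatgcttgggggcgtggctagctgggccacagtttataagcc
Slfn5: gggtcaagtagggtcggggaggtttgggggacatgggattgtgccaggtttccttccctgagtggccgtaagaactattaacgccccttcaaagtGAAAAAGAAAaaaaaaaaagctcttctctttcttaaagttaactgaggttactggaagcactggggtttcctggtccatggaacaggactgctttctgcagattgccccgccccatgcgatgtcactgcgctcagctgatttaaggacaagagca
Cmpk2: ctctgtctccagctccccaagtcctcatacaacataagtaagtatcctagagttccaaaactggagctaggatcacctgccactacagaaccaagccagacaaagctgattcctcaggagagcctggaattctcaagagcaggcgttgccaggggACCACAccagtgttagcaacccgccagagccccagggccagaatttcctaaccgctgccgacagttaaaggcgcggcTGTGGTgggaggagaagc

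Granulocyte, monocyte and dendritic genes were mostly higher where called, but the medians of both lists lay near 0. Of 25 tested monocyte, macrophage and dendritic genes, 5 were higher and 1 lower (24% called, against 11.3% of all genes), and of 16 granulocyte genes 4 were higher (25%). The medians were 0.049 and 0.003, against -0.03 over all genes. Above 0 lay 16 of the monocyte list and 8 of the granulocyte list, and below it 9 and 8. Without each single day 7 array, 2 of the 5 and 1 of the 4 passed. Of these higher genes, Ms4a6b, Ms4a6c, Ms4a6d, Gfi1 and Ms4a3 reached the filter through TEL-AML1 alone, so their entry favoured a higher call. Ms4a6c and Ms4a6b, neighbouring members of a family of membrane proteins of myeloid cells, went from near the floor to clear signal. Ms4a6c stood at 66.8 and 48.7 against 652 and 409 (2.86 ± 0.19, adjusted p = 2.2e-05) and Ms4a6b at 54.6 and 46.1 against 471 and 285 (2.53 ± 0.20, adjusted p = 5.64e-05). The TEL-AML1 arrays of both genes lay above the empty-vector arrays, and as family members their probes may share signal. Itgam, the CD11b integrin chain, stood at 87.2 and 85.9 against 143 and 140 (0.62 ± 0.097, adjusted p = 0.00259). The lower call of the monocyte list was Ccr2, a chemokine receptor, at 740 and 726 against 457 and 567 (-0.51 ± 0.10, adjusted p = 0.00837). Pilra, an inhibitory receptor of myeloid cells on distal chromosome 5, stood at 158 and 181 against 1159 and 729 (2.34 ± 0.32, adjusted p = 0.00108). Pilra is in neither list and is given as 1 of the 25 highest differences. Mpo, the granule enzyme myeloperoxidase, stood at 3354 and 3549 against 3011 and 3041 and did not pass (-0.19 ± 0.068, adjusted p = 0.113), and Csf1r, the receptor that marks monocytes, stayed between 62.7 and 74.7 on all 4 arrays.

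Early B genes, the lineage the culture is meant to favour, were called in 3 of 25 cases (12%, against 11.3% of all genes), with a median of -0.06. Dntt, the terminal transferase of lymphoid precursors, stood at 235 and 120 with the empty vector and at 52 and 44.9, near the floor, with TEL-AML1 (-1.52 ± 0.21, adjusted p = 0.00125). Bach2, a repressor of B-cell maturation, stood at 54.8 and 53.4 against 89 and 95.8 (0.63 ± 0.086, adjusted p = 0.00114). Both groups of Bach2 lay near the floor, and it reached the filter through TEL-AML1 alone, as Dntt did through the empty vector. Cd93, a surface protein of early B cells and other progenitors, stood at 186 and 175 against 520 and 388 (1.24 ± 0.20, adjusted p = 0.00324). All 3 calls held without each single day 7 array. Ebf1, a master regulator of the B lineage that stroma also expresses, stood at 60.8 and 156 against 49.2 and 89.5 (-0.47 ± 0.43, adjusted p = 0.568). In both vectors it was higher on replicate 2, the array with more stromal signal.

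Among T and NK genes, Tox fell the most. Tox, a nuclear factor of T-cell and innate lymphoid development, stood at 882 and 789 against 118 and 86 (-2.86 ± 0.14, adjusted p = 4.16e-06). Gata3, a T-cell regulator also used by early progenitors, stood at 525 and 499 against 293 and 260 (-0.86 ± 0.14, adjusted p = 0.00279). In the other direction, Cd7, a surface protein of T and early lymphoid cells, stood at 118 and 104 against 378 and 274 (1.41 ± 0.12, adjusted p = 0.000102). Gzmb, granzyme B, which mast cells also make, stood at 1949 and 1892 against 3113 and 3027 (0.67 ± 0.077, adjusted p = 0.000446). These 4 genes did not overlap between vectors. Of the 16 tested T and NK genes, 2 were higher and 3 lower (31.2% called, against 11.3% of all genes), with a median of -0.04. Cd3e, a defining T-cell chain, stayed between 55.8 and 64.1.

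Stem and progenitor genes were split. Of 25 tested, 4 were higher and 3 lower (28% called, against 11.3% of all genes). Angpt1, a ligand of the TIE2 receptor made by stem cells, stood at 269 and 157 against 629 and 628 (1.54 ± 0.18, adjusted p = 0.000528). Tie1, a related receptor, stood at 122 and 112 against 62.5 and 61.5 (-0.77 ± 0.085, adjusted p = 0.000373). Slamf1, the CD150 marker, stood at 80.6 and 58 against 161 and 124 (0.90 ± 0.16, adjusted p = 0.00522). Meis1, a homeobox factor of stem cells, was called lower (-0.47 ± 0.13, adjusted p = 0.0459), but it was lost whichever day 7 array was left out (adjusted p up to 0.242) and in the replicate block (adjusted p = 0.0566).

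**Figure D4:**
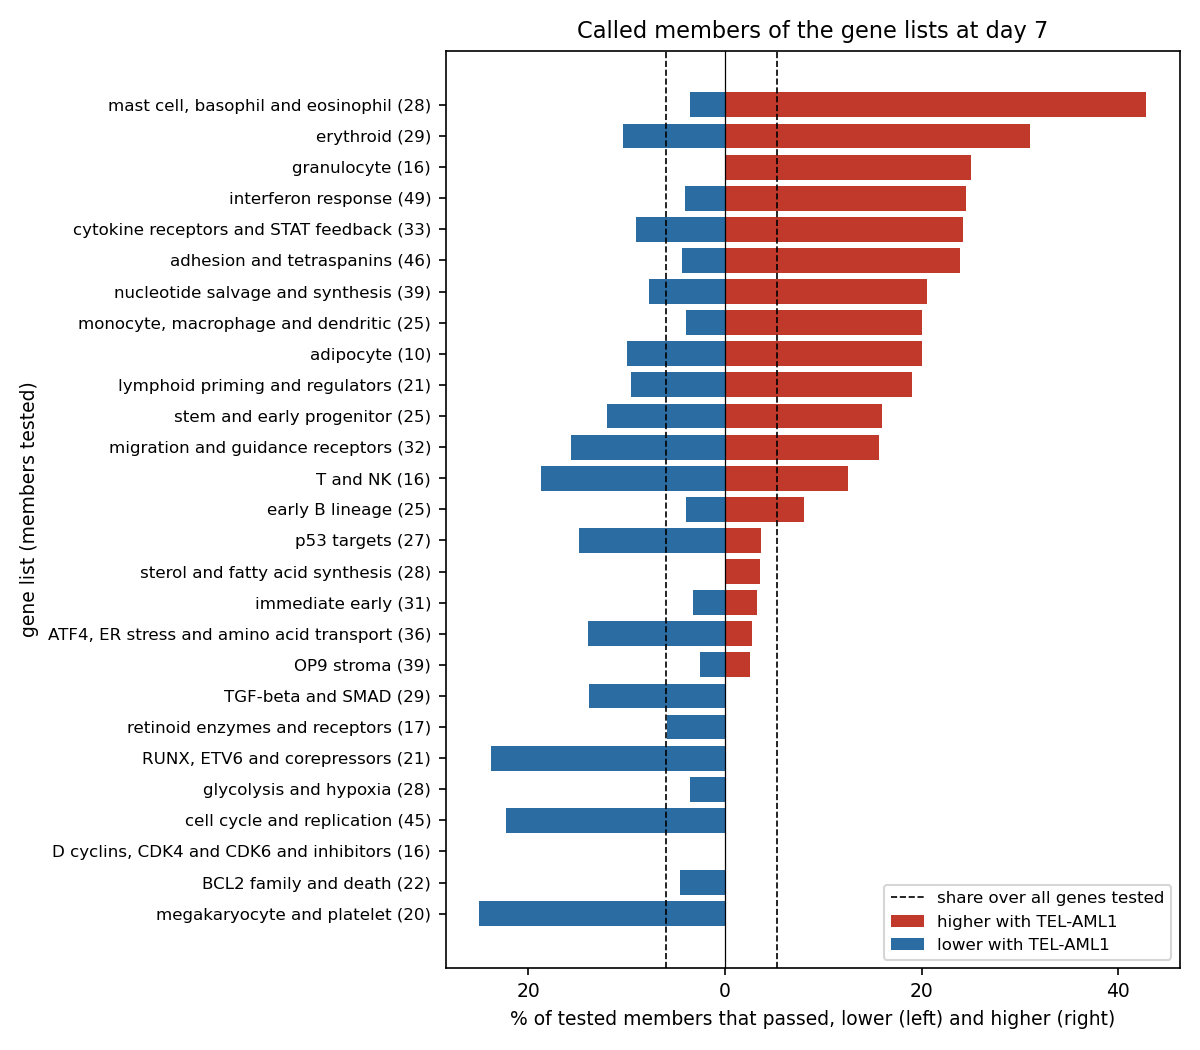
Share of the tested members of each of 27 gene lists that passed as higher (right, red) or lower (left, blue) with TEL-AML1 at day 7, with the number tested in brackets; the dashed lines mark the shares over all genes (5.29% higher, 6% lower). The mast cell and erythroid lists reach farthest to the right and the megakaryocyte list farthest to the left.

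Nucleotide salvage and synthesis genes were called in both directions, in a larger share than the 11.3% of all genes. Of 39 tested genes of nucleotide salvage and synthesis, 8 were higher and 3 lower (28.2% called), with a median of 0.07, and 6 of the higher and none of the lower passed without each single array. Cda, which deaminates cytidine, stood at 82.2 and 67.1 against 457 and 693 (2.68 ± 0.17, adjusted p = 1.85e-05). Dctd, which deaminates deoxycytidylate, stood at 104 and 97.2 against 459 and 419 (1.97 ± 0.12, adjusted p = 1.14e-05). The vectors were far apart for both enzymes. Adk, adenosine kinase, stood at 337 and 365 against 691 and 719 (0.97 ± 0.12, adjusted p = 0.000605), and Nt5c3, a pyrimidine nucleotidase of red cells, at 279 and 240.3 against 415 and 449 (0.70 ± 0.12, adjusted p = 0.00331). Tk2, the mitochondrial thymidine kinase, stood at 168 and 154 against 231 and 257 (0.55 ± 0.094, adjusted p = 0.00402). Tk1, the cytosolic kinase of dividing cells, was called lower (-0.50 ± 0.13, adjusted p = 0.0281), a call lost without empty-vector replicate 2 or TEL-AML1 replicate 1 (adjusted p up to 0.181). The other lower calls were Dck, the deoxycytidine kinase, at 523 and 476 against 402 and 408 (-0.29 ± 0.074, adjusted p = 0.0308), and Aprt, which salvages adenine, at 422 and 512 against 329 and 350 (-0.44 ± 0.10, adjusted p = 0.0202).

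Cell cycle genes were lower where they were called. Of 45 tested genes of replication and mitosis, 10 were lower and none higher (22.2% called, against 11.3% of all genes). Their median was -0.20 against -0.03 in untreated cells and 0.03 at day 5. The number lower was 3 without TEL-AML1 replicate 1, 7 without TEL-AML1 replicate 2, 6 without empty-vector replicate 2 and 11 without empty-vector replicate 1. It was 17 in the replicate block, and 0 with only the 4 day 7 arrays in the limma fit. Over all genes, the lower calls went from 740 to 1163 and to 179 in these fits. Ccna2, cyclin A2 of S and G2 phase, stood at 1565 and 1598 against 1173 and 1139 (-0.45 ± 0.066, adjusted p = 0.00187) and was the member that passed without each single array.

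Amino acid transport and stress genes had 5 lower and 1 higher among 36 tested (16.7% called, against 11.3% of all genes). Slc7a11, the cystine importer, stood at 322 and 301 against 59.2 and 55.9, near the floor (-2.15 ± 0.21, adjusted p = 0.000169). Slc43a3, a purine base transporter of the same list, stood at 1277 and 1287 against 257 and 297 (-2.15 ± 0.096, adjusted p = 3.23e-06). Replicates of both were close and the vectors wide apart. Slc7a1, a carrier of cationic amino acids, and Psph, the last enzyme of serine synthesis, were lower by limma (-1.04 ± 0.16 and -0.56 ± 0.093, adjusted p = 0.00218 and 0.00353), and both lie on distal chromosome 5, described further on. Slc38a1, a glutamine transporter, stood at 1115 and 1137 against 1561 and 1483 (0.43 ± 0.073, adjusted p = 0.00402).

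Tspan13, a tetraspanin, had the highest difference of any gene named by the rule: 65.1 and 48.1 against 518 and 721 (3.12 ± 0.21, adjusted p = 2.25e-05). Its empty-vector arrays lay near the floor and it reached the filter through TEL-AML1 alone; with 1 or 64 in place of the 16 added before the log, the difference of Tspan13 at day 7 was 3.425 or 2.49. Of 46 tested adhesion and tetraspanin genes, 11 were higher and 2 lower (28.3% called), and 5 of the higher passed without each single array. The called share over all genes was 11.3%. Itgb4, an integrin chain for laminin, stood at 90.2 and 78.5 against 206 and 286 (1.37 ± 0.14, adjusted p = 0.000224). Its partner Itga6 stood at 687 and 700.2 against 969 and 947 (0.46 ± 0.076, adjusted p = 0.00355). Itgb2, the beta chain shared by leukocyte integrins, stood at 179 and 197 against 321 and 326 (0.74 ± 0.074, adjusted p = 0.000218). All 4 genes were higher on each TEL-AML1 array. Cdh17, a cadherin known from intestine and B lymphocytes, stood at 202 and 378 against 96.9 and 75.5 (-1.53 ± 0.22, adjusted p = 0.00149). Cd81, another tetraspanin, stood at 114 and 340.4 against 466 and 605 (1.35 ± 0.37, adjusted p = 0.0421). In untreated cells it stood at 83.1 and 77.4 against 661 and 637 (2.79 ± 0.37, adjusted p = 0.000961), and at day 5 it did not pass (0.54 ± 0.37, adjusted p = 0.459). At day 7 it passed in the limma fit with the stroma covariate (adjusted p = 0.000867). The empty-vector value of Cd81 was higher on replicate 2, the array with more stromal signal, and the call was lost without empty-vector replicate 1 or either TEL-AML1 array (adjusted p up to 0.224).

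Migration and guidance receptors were called 5 times in each direction among 32 tested (31.2%, against 11.3% of all genes). Gpr183, a receptor for oxysterols that guides lymphocytes, stood at 73.5 and 54.8 against 485 and 521 (2.70 ± 0.11, adjusted p = 2.17e-06). Ptger3, a prostaglandin E2 receptor, stood at 50.9 on both empty-vector arrays against 84.7 and 76.7 (0.53 ± 0.07, adjusted p = 0.000919). Both groups of Ptger3 lay near the floor, and it reached the filter through TEL-AML1 alone, as did P2ry13, another of the 5 higher genes. Neo1, neogenin, a receptor for netrins and repulsive guidance molecules, stood at 245 and 386 against 97.4 and 110.4 (-1.44 ± 0.18, adjusted p = 0.000621). Each of these 3 genes was separated between the vectors. Plxna2, a semaphorin receptor subunit, stood at 138 and 136 against 67.3 and 58.7 (-0.95 ± 0.072, adjusted p = 4.92e-05). Flt1, a VEGF receptor, stood at 782 and 1055 against 205 and 165 (-2.21 ± 0.17, adjusted p = 5.64e-05) and lies on distal chromosome 5. Ccr2, the receptor for monocyte chemoattractant proteins, stood at 740 and 726 against 457 and 567 (-0.51 ± 0.10, adjusted p = 0.00837; 0.0583 without TEL-AML1 replicate 1).

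RUNX, ETS and corepressor genes were lower where called, in a larger share than the 11.3% of all genes. Of 21 tested genes of the RUNX, ETV6 and corepressor list, 5 were lower and none higher (23.8% called), with a median of -0.08, and 1 to 4 were lower with a day 7 array left out. Hdac9, a class IIa histone deacetylase, stood at 241 and 195 against 89.4 and 77.4 (-1.23 ± 0.11, adjusted p = 0.00011) and passed without each single array. Runx3, a RUNX1 paralog of lymphoid and myeloid cells, stood at 936 and 754 against 607 and 455 (-0.66 ± 0.14, adjusted p = 0.0107), and was lost without empty-vector replicate 1 or TEL-AML1 replicate 2 (adjusted p up to 0.0796). Cbfb, the DNA-binding partner of RUNX proteins, stood at 908 and 905 against 990.4 and 932 (0.08 ± 0.086, adjusted p = 0.623). Rara, the retinoic acid receptor whose truncated form is in the line's retroviral vector, stood at 345 and 390.2 against 344 and 303 (-0.18 ± 0.096, adjusted p = 0.302). In the TGF-beta and SMAD list 4 of 29 were lower and none higher (13.8% called, near the 11.3% of all genes). Smad5, a transducer of BMP signals, stood at 715 and 707 against 502 and 513 (-0.47 ± 0.088, adjusted p = 0.00655), and Smurf1, a ubiquitin ligase for SMADs on distal chromosome 5, was lower by limma (-0.88 ± 0.084, adjusted p = 0.000147).

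The p53, early response, hypoxia, BCL2 family and sterol lists each had 1 to 5 calls (3.57% of the sterol list). Gadd45a, a growth arrest gene of the p53 list, stood at 77.6 and 75.9 against 148 and 148 (0.83 ± 0.083, adjusted p = 0.000218), and Zmat3, an RNA-binding p53 target, at 312 and 395 against 154 and 150 (-1.13 ± 0.17, adjusted p = 0.00203). In that list 1 of 27 was higher and 4 lower (18.5% called, against 11.3% of all genes): Zmat3, Sesn2, Ei24 and Mdm2, of which 1 passed without each single array. Ier3, an early response gene linked to survival, stood at 226 and 205 against 740 and 739 (1.71 ± 0.10, adjusted p = 1.48e-05), the 1 higher and 1 lower call of 31 immediate early genes (6.45%) being Ier3 and Dusp4. Dusp4, a phosphatase of MAP kinases, was lower by limma (-1.09 ± 0.22, adjusted p = 0.00937; 0.0777 without TEL-AML1 replicate 1). Egln3, an oxygen-sensing hydroxylase, stood at 1552 and 1496 against 495 and 780 (-1.27 ± 0.23, adjusted p = 0.00563), the call among 28 glycolysis and hypoxia genes (3.57%). Bcl2, a survival protein, was the call among 22 BCL2 family and death genes (4.55%; -0.37 ± 0.091, adjusted p = 0.0279), lost without empty-vector replicate 1 or either TEL-AML1 array (adjusted p up to 0.139). Of 28 sterol and fatty acid genes 1 was higher, Stard4, a sterol carrier (0.47 ± 0.091, adjusted p = 0.00858), a call lost without TEL-AML1 replicate 2. In the replicate block 7 of the list were higher, while higher calls over all genes went from 653 to 1053. Zeb2, a zinc finger repressor of the lymphoid priming list, was higher (0.53 ± 0.10, adjusted p = 0.00864), a call lost without TEL-AML1 replicate 1. That list had 4 higher and 2 lower of 21 (28.6% called, against 11.3% of all genes). Of the higher genes, Gfi1 reached the filter through TEL-AML1 alone. No call of that list held without each single array. Apoe, apolipoprotein E of the adipocyte list, stood at 190.4 and 145 against 448 and 349 (1.18 ± 0.14, adjusted p = 0.000448).

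Chromosome position separated many of the lower calls. On distal chromosome 5, from Taok3 to Rfc3 in gene order, 172 of 331 tested genes were lower and 6 higher, with a median of -0.39, against 28 lower and 18 higher of 449 genes on the rest of the chromosome (median -0.02). This stretch held 23.2% of all lower calls, and its bounds were chosen on these data, so the share has no test. Without the genes of this stretch and of chromosome Y, 612 of 12000 genes were higher and 536 lower. On chromosome Y, 3 of 6 tested genes were higher with TEL-AML1. Eif2s3y, a translation factor subunit, stood at 79.7 and 155 against 475 and 540 (2.03 ± 0.22, adjusted p = 0.000318), Uty, a histone demethylase relative, at 77 and 122 against 414 and 414 (1.93 ± 0.17, adjusted p = 0.00011) and Kdm5d, a histone demethylase, at 76 and 121 against 278 and 285 (1.41 ± 0.17, adjusted p = 0.000486). All 3 were higher on replicate 2 of the empty vector, and both TEL-AML1 arrays lay above both empty-vector arrays. The cause of these position-linked differences was not tested.

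The day 7 calls were set beside those of untreated cells and of day 5, which use other arrays. In untreated cells 1098 genes passed (8.9%), 338 higher (2.74%) and 760 lower (6.16%), and at day 5 903 passed (7.32%), 375 higher (3.04%) and 528 lower (4.28%). Of the 653 genes higher at day 7, 232 were also called higher in untreated cells (35.5% of the day 7 calls and 68.6% of the untreated ones) and 286 at day 5 (43.8% and 76.3%). Of the 740 lower genes, 440 were shared with untreated cells (59.5% and 57.9%) and 416 with day 5 (56.2% and 78.8%). All 3 conditions shared 175 higher and 335 lower genes, while 309 higher and 219 lower genes were called at day 7 alone. A call at day 7 alone does not show that the vector difference changed. The test of the difference itself found 10 genes between day 7 and untreated cells (0.0811%), 7 with a more positive difference at day 7 (0.0567%) and 3 with a more negative one (0.0243%), among 1116 with an unadjusted p under 0.05. It found 0 between day 7 and day 5 (0%), where 424 genes had an unadjusted p under 0.05. The smallest adjusted p for day 7 against day 5 was 0.221.

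Ms4a6c and Ms4a6b gained 2.35 ± 0.27 and 2.23 ± 0.28 (adjusted p = 0.0127 and 0.0247): in untreated cells Ms4a6c stood at 48.8 and 49.2 with the empty vector and at 75.2 and 79.2 with TEL-AML1. Parp14 gained 1.51 ± 0.17 (adjusted p = 0.0127), Rsad2 1.39 ± 0.19 (adjusted p = 0.0318) and Gpr183 1.16 ± 0.15 (adjusted p = 0.0296). Slfn5 turned from a negative difference in untreated cells (-0.49 ± 0.069) to a positive one at day 7 (0.53 ± 0.069), a change of 1.01 ± 0.097 (adjusted p = 0.0104). Untreated Slfn5 stood at 130.2 and 133 with the empty vector and at 85.7 and 93.1 with TEL-AML1, so both vectors were brighter at day 7. Slc14a1 was lower with TEL-AML1 in both conditions, by -1.77 ± 0.082 untreated and -0.65 ± 0.082 at day 7 (change 1.12 ± 0.11, adjusted p = 0.0104).

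The other 3 genes had a smaller or opposite difference at day 7. Dhrs9, a retinol dehydrogenase, stood at 82.5 and 69.9 against 401 and 402 in untreated cells and at 74.2 and 104 against 96.3 and 115 at day 7 (change -1.97 ± 0.22, adjusted p = 0.0127), where the vectors overlapped. Ccr2 was higher with TEL-AML1 in untreated cells (0.50 ± 0.10) and lower at day 7 (-0.51 ± 0.10), a change of -1.01 ± 0.14 (adjusted p = 0.0335), and Mid1, a microtubule-associated ubiquitin ligase, went from 0.66 ± 0.11 to -0.49 ± 0.11 (change -1.15 ± 0.16, adjusted p = 0.0318). The day 7 difference of Mid1 was lost without empty-vector replicate 2 or TEL-AML1 replicate 2 (adjusted p up to 0.145) and that of Ccr2 without TEL-AML1 replicate 1 (0.0583). All 10 were lost when any single untreated array was left out (adjusted p from 0.0637 to 0.245). They were called again in the replicate block within each condition, where 34 genes passed. In a replicate block over all arrays Ccr2, Gpr183 and Mid1 were not called (adjusted p = 0.0561 for each) and the other 7 were. With only the untreated and day 7 arrays in the limma fit, Dhrs9, Slc14a1 and Slfn5 were called (adjusted p = 0.0387 for each). The others were not called there (adjusted p from 0.0587 to 0.0803).

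**Figure D5:**
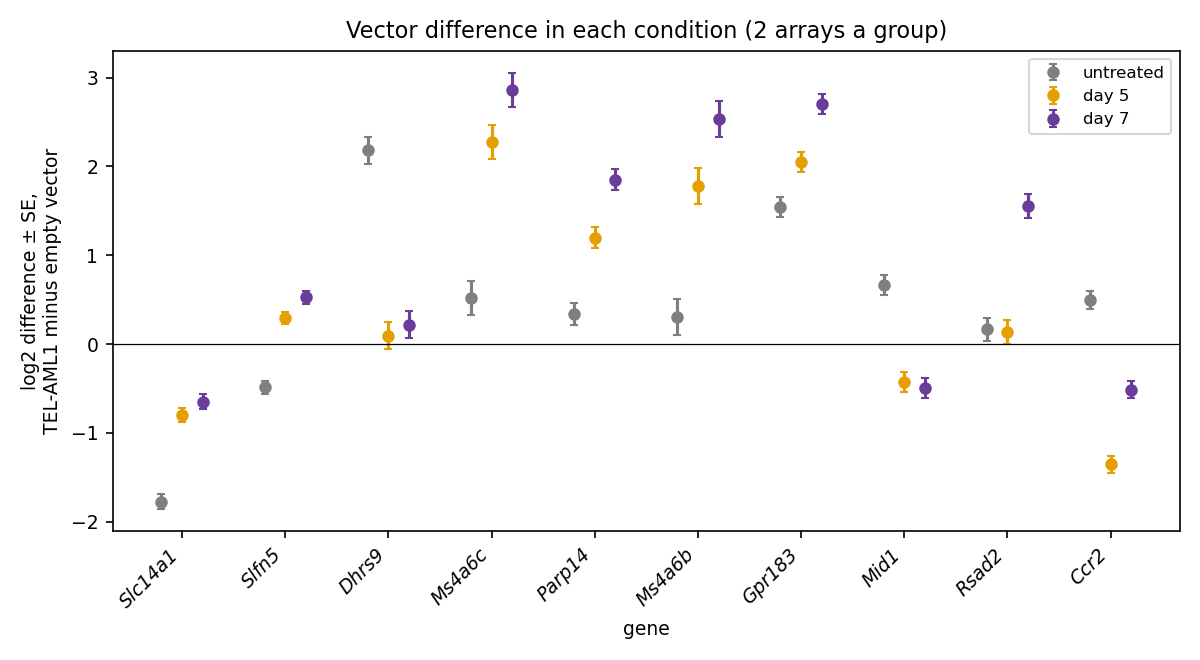
Log2 difference between TEL-AML1 and empty vector (points, ± SE from the fit) by condition for the 10 genes whose difference changed between untreated cells and day 7. Rsad2 is near 0 untreated and at day 5 and at 1.56 at day 7; Dhrs9 falls from 2.18 untreated to 0.22.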

How the data were processed

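Groups and replicate numbers came from the sample titles. The deposited table holds 1 linear intensity per probe set and array (35556 probe sets, medians of 68.1 to 72.9). The authors' background correction, probe summary and normalization are not given in the sources used here. An array has no read depth, and 2 arrays a group limit precision. Only probe sets with 1 gene in the platform annotation were named (21218). Each of 18820 genes was represented by its brightest probe set and kept if its mean passed the 40th percentile (60.1), leaving 12337. Values were tested as log2(intensity + 16) with limma 3.58.1 in R 4.3.3 (lmFit and eBayes, 6 group means over all 12 arrays, which share 1 spread per gene), with Benjamini-Hochberg adjustment and a threshold of 0.05. The fit was checked on simulated data. Same-numbered arrays of the vectors deviated together within each condition (correlation 0.433 untreated, 0.543 at day 5, 0.377 at day 7). The main fit did not pair arrays. The numbers were used as pairs only in the replicate block fits, a choice made from these same arrays, as the labels state no pairing.

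Named genes were the 25 highest and 25 lowest called differences whose arrays did not overlap, the 10 highest and 10 lowest changes of each interaction, all called members and the 6 smallest adjusted p of each list, and the ETV6, RUNX, CBFB, RARA and EPOR genes, of which a part is given; other genes were marker genes or chosen after their values were seen. Members and 27 gene lists were chosen with earlier results of these data known. Promoter windows are RefSeq's (GRCm38.p6), and they were available for 512 of 653 higher and 606 of 740 lower genes; the GATA and interferon motifs were added after the data were seen. Alternatives changed the normalization, filter, pseudocount, probe set rule, variance model, weights, samples, block, stroma covariate and chromosome genes.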

Additional observations from a re-analysis of the deposited data

Results flagged for a closer look

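The vector difference itself changed between untreated cells and day 7, by the interaction contrast of limma, for 10 genes. It was higher at day 7 for Ms4a6c by 2.35, Ms4a6b by 2.23, Parp14 by 1.51, Rsad2 by 1.39, Gpr183 by 1.16, Slc14a1 by 1.12 and Slfn5 by 1.01 on the log2 scale. It was lower at day 7 for Dhrs9 (-1.97), Mid1 (-1.15) and Ccr2 (-1.01). With only the untreated and day 7 arrays in the fit, the calls of Dhrs9, Slc14a1 and Slfn5 held and the others did not. Of the interferon and Ms4a6 genes, Parp14, Ms4a6c, Ms4a6b and Slfn5 already had a called vector difference at day 5 (1.20, 2.28, 1.78 and 0.30), while Rsad2 did not (0.14, adjusted p = 0.619). Groups of 2 arrays were not tested for outlying arrays.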

How the results depend on the processing

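The number of day 7 calls stayed within 1.5 times 1393 under quantile normalization, centring, both filters, both pseudocounts, the mean of probe sets, every probe set by itself, a trended variance, a replicate block over all arrays, the stroma covariate and without distal chromosome 5 and Y genes (1148 to 1755). Array weights gave 899 (406 higher, 493 lower), and only the 4 day 7 arrays gave 373 (194 and 179), all among the 1393. The replicate block within each condition gave 2216 (1053 and 1163), and of 106 named called genes it ended the call of Meis1 and of no other, while Tpsb2 and Klf1 became called. With 1 day 7 array left out, the total lay between 757 and 1731, the higher between 371 and 845 and the lower between 386 and 886. The change from untreated cells gave 5 genes with no filter, 3 with only the compared groups, 34 in the replicate block and 20 with the stroma covariate. It gave 0 to 75 with 1 array left out (75 without empty-vector day 7 replicate 2, 0 without any untreated array). The change from day 5 gave 0 to 1. With the stroma covariate Ebf1 turned to 0.06, Runx1 to -0.012 and Col1a1 to 0.141. With 1 array left out, genes that were not called and changed sign ranged from -0.067 to 0.174 (Cpa3), -0.028 to 0.113 (Kit), -1.06 to 0.112 (Ebf1), -1.24 to 0.14 (Col1a1), -0.195 to 1.16 (Il7r), -0.027 to 0.681 (Ifit1) and -0.052 to 0.2 (Runx1). No called named gene reversed, and 63 of the 106 kept their call under every alternative that tested them. The causes of these shifts were not tested.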

Other observations

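Some adjacent genes outside distal chromosome 5 were both called. Of 7816 adjacent pairs of tested genes, 99 had both members called (1.27%), 66 in the same direction and 33 in opposite ones, where 10.3% of the genes in these pairs were called, and the count is no result about adjacent genes. The pairs named here were chosen after their values were seen, among those with the same direction. Rnf144a, a ubiquitin ligase gene beside Rsad2 and Cmpk2, was higher by 0.99 with Rsad2 at 1.56 and Cmpk2 at 2.57. Gem, a small GTPase, and Cdh17 were lower together (-1.33 and -1.53), as were the p38 kinase genes Mapk12 and Mapk11 (-1.20 and -1.27). Ifi208 and Ifi207, interferon-inducible genes of 1 cluster, were higher by 1.16 and 0.80, and Apoc1 and Apoe, apolipoprotein genes, by 0.55 and 1.18, the call of Apoc1 being lost without empty-vector replicate 1 or either TEL-AML1 array (adjusted p up to 0.136).

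Probe sets that the annotation does not list were tested in the fit of every probe set by itself. Of 6287 such probe sets above the filter, 130 were higher and 93 lower with TEL-AML1 at day 7 (3.55% called, against 8.75% of the 13941 probe sets of 1 gene and 7.16% of all 21333), and they are unnamed here.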
